A study of Mus musculus with 12 samples.

Results

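Dendritic cells are sentinel cells of the immune system, and 9 genes that mark their identity were followed here among the 31060 genes of a count table of mouse bone marrow. The genes were taken by name, through their Ensembl identifiers, from a list drawn up with earlier results of these data known. Siglech, Tcf4, Spib, Klk1 and Runx2 make up the 5 plasmacytoid members, Clec9a, Batf3 and Zbtb46 the 3 conventional members, and Flt3 is the receptor of the growth factor that both kinds of cell depend on. All 9 passed the filter on low counts.

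RNA-seq had been done on bone marrow cells depleted of lineage-positive cells (lineage-negative marrow), from C57BL/6 mice of 4 genotypes. There were 3 libraries labelled Tet2+/-;Ins2Akita/+ (the double mutant, with 1 disrupted copy of Tet2, a DNA demethylase of blood cells, and 1 Akita copy of Ins2), 3 labelled Tet2+/-, 2 labelled Ins2Akita/+ (Akita) and 3 labelled wild type (WT). Akita is a dominant allele of Ins2 whose misfolded insulin makes mice diabetic. The labels give no age, no antibody panel for the depletion and no origin of the Tet2 allele, and they do not say whether the libraries of a genotype are separate animals, so a p-value covers only the spread among libraries. The series title names hyperglycaemia and Tet2 haploinsufficiency in myeloid neoplasms as the subject.

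Plasmacytoid dendritic cells are the main makers of type I interferon, and conventional dendritic cells take up, process and present antigen to T cells. Both arise in the bone marrow from Flt3-bearing progenitors. The E protein Tcf4 specifies the plasmacytoid fate and works with Spib and Runx2, whereas Batf3 and Irf8 direct the conventional cells of type 1, which carry the receptor Clec9a.

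Total counts were 14814409 to 22600405 per library, and 3 counts, taken as the floor of detection, correspond to 0.142 to 0.190 CPM, the count scaled to the effective library size. Tet2 itself, the check of the labels, was at 66.5, 108 and 34.2 CPM in the libraries labelled double mutant, at 19.0, 18.5 and 19.3 CPM in Tet2+/-, at 131 and 107 CPM in the Akita libraries and at 91.2, 128 and 45.1 CPM in WT. Number by number, the libraries labelled double mutant had 72.9%, 84.2% and 75.7% of the Tet2 level of WT, and Tet2+/- had 20.8%, 14.5% and 42.8%, so the drop seen in Tet2+/- was not seen in the double mutant libraries, and every direction given here is one between libraries carrying these labels. Genes of maturing neutrophils summed to 2929 CPM in Tet2+/- 3 and 2084 CPM in WT 3, the 2 lowest of the 11 libraries, but to 60633 CPM in double mutant 3, between double mutant 1 and 2. Results that rest on the libraries numbered 3 are given with and without them. The 10 genes of stem and progenitor cells, the cells that lineage depletion is meant to keep, summed to 316 to 661 CPM in libraries labelled double mutant, 272 to 509 CPM in Tet2+/-, 426 to 438 CPM in Akita, with 393 to 497 CPM in WT.

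The promoters of 4 members are printed because their genes carry the result: Siglech and Spib for the plasmacytoid pattern, Clec9a for the conventional one, and Klk1 for the pattern that stood apart. Each is the 250 bases before the RefSeq start of the gene on GRCm38.p6, written 5′ to 3′ on the strand of the gene: chr7:55767934-55768183 (plus strand) for Siglech, chr7:44532072-44532321 (minus strand) for Spib, chr6:129408612-129408861 (plus strand) for Clec9a and chr7:44225110-44225359 (plus strand) for Klk1. Capitals mark a match, on either strand, to the E-box letters CACCTG that E proteins such as Tcf4 bind or to the Runx letters TGTGGT.
Siglech: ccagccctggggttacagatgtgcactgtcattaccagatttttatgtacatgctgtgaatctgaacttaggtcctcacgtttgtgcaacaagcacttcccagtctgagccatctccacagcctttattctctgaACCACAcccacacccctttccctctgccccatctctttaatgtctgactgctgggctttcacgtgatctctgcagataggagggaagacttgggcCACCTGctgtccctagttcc
Spib: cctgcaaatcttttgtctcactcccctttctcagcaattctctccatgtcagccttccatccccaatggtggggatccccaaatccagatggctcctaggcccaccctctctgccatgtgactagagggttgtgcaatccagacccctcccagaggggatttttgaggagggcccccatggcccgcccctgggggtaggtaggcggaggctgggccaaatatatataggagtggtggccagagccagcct
Clec9a: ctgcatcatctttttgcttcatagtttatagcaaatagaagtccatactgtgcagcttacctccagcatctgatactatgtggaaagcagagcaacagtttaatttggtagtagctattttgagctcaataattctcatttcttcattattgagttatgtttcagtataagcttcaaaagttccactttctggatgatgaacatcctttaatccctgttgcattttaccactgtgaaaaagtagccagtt
Klk1: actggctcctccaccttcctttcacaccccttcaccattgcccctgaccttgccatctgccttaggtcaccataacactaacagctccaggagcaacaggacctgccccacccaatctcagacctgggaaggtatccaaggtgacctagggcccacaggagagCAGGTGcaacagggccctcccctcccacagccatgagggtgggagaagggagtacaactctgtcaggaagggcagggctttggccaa

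In Siglech the capitals are a CACCTG match 20 bases and a TGTGGT match 115 bases before the start, and in Klk1 a CACCTG match 87 bases before it. The windows of Spib and Clec9a hold none of the 5 motifs searched. A second E-box form, CAGCTG, was searched too. The Ets letters GAGGAA are bound by factors such as Spib and Spi1. The AP-1 letters TGANTCA are bound by factors such as Batf3. No motif contains another. The window of Tcf4 was not used. Over the 8 members whose window was used, CACCTG was in 3 (Siglech, Klk1 and Zbtb46), against 17.2% of 32851 promoter windows of that length. TGTGGT was in 2 (Siglech and Runx2), against 14% of windows, and GAGGAA in 1 (Batf3), against 23.3%. TGANTCA was in 1 (Zbtb46), against 6.75%, and CAGCTG was in 0, against 13%. The Zbtb46 window (chr2:181424389-181424638) lies within the annotated gene (chr2:181387762-181459426, minus strand) rather than upstream of it. So does the Batf3 window (chr1:191098164-191098413, gene chr1:191097847-191108945, plus strand). The Runx2 window (chr17:44814628-44814877) lies partly within its gene (chr17:44495987-44814797, minus strand), and its TGTGGT match is in that part. The matches counted for Zbtb46, Batf3 and Runx2 are therefore not upstream of the outermost start of those genes.

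Most of the plasmacytoid and conventional genes were at their lowest in the libraries labelled double mutant. In these libraries 7 of the 9 members lay below every WT library: the 5 plasmacytoid genes, Clec9a and Zbtb46. Across all genes tested, 8.57% lay below every WT library in the same way. Flt3 and Batf3 overlapped WT. In bulk RNA, fewer cells of a type and less RNA per cell cannot be told apart.

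**Figure D1:**
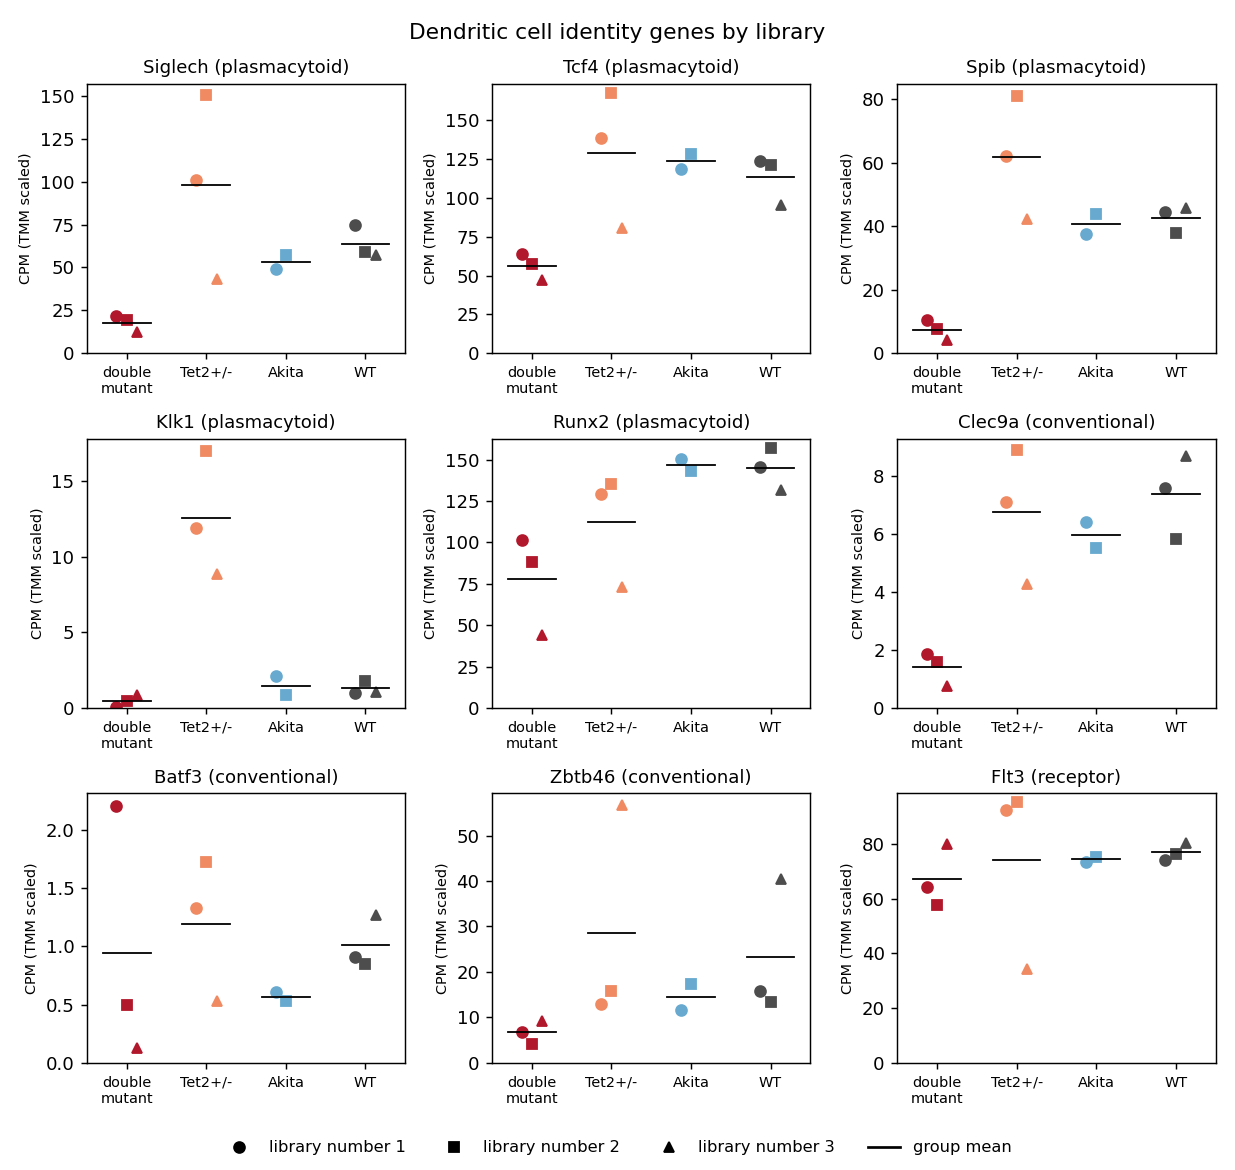
Level of each of the 9 members in CPM (vertical axis, from 0) in each of the 11 libraries, by genotype, with a symbol for the library number and a line at the group mean. The libraries labelled double mutant lie below all WT libraries for Siglech, Tcf4, Spib, Klk1, Runx2, Clec9a and Zbtb46, and Klk1 stands high in Tet2+/-.

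Siglech encodes a sialic acid-binding surface receptor that marks mouse plasmacytoid dendritic cells (GRCm38, chr7:55768178-55778925, plus strand). It was at 21.9, 19.2 and 12.1 CPM in the libraries labelled double mutant, at 101, 150 and 43.5 CPM in Tet2+/-, at 49.3 and 57.0 CPM in Akita and at 74.8, 58.7 and 57.5 CPM in WT. All 3 double mutant libraries were below all 8 others, and Tet2+/- spread from below the lowest WT library to well above the highest. The log2 difference was -1.84 (SE 0.41, edgeR adjusted p = 0.157) against WT and -2.47 (SE 0.42, edgeR adjusted p = 0.0531) against Tet2+/-, neither past the threshold of 0.05. Number by number, the double mutant libraries had 29.3%, 32.7% and 21.0% of the WT level.

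Spib, an Ets-family transcription factor of plasmacytoid dendritic cells and B cells (chr7:44525993-44532071, minus strand), differed most among the plasmacytoid members relative to WT. Its level was 10.4, 7.46 and 4.25 CPM in the libraries labelled double mutant, 62.0, 81.1 and 42.2 CPM in Tet2+/-, 37.7 and 43.9 CPM in Akita, with 44.4, 37.8 and 45.7 CPM in WT. The highest double mutant library was far under the lowest of the other 8 libraries. Spib fell against Tet2+/- (log2 difference -3.06, SE 0.36, edgeR adjusted p = 0.0259). Against WT the log2 difference was -2.53 (SE 0.35, edgeR adjusted p = 0.0506), just short of the threshold, and against Akita it was -2.46 (SE 0.37, edgeR adjusted p = 0.119).

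Tcf4, the E protein that drives plasmacytoid development, and Runx2, a transcription factor needed for these cells to leave the marrow, showed smaller differences. Tcf4 was at 64.0, 57.4 and 46.8 CPM in the libraries labelled double mutant, 138, 168 and 80.7 CPM in Tet2+/-, 118 and 129 CPM in Akita, with 124, 121 and 95.3 CPM in WT, so the double mutant libraries were again below all 8 others. The log2 difference of Tcf4 from WT was -1.02 (SE 0.27, edgeR adjusted p = 0.232), and the within-number levels were 51.6%, 47.4% and 49.2% of WT. Runx2 was at 102, 88.5 and 44.2 CPM in the libraries labelled double mutant, 129, 135 and 73.2 CPM in Tet2+/-, 150 and 143 CPM in Akita, with 146, 157 and 132 CPM in WT. Its double mutant libraries were below every WT and Akita library but overlapped Tet2+/-, through Tet2+/- 3, and the log2 difference from WT was -0.89 (SE 0.32, edgeR adjusted p = 0.412). Runx2 (chr17:44495987-44814797, minus strand) is also the master regulator of osteoblasts. The 10 osteoblast and stromal genes summed to 43.4 to 101 CPM in libraries labelled double mutant, 40.3 to 53.5 CPM in Tet2+/-, 32.7 to 36.9 CPM in Akita, with 34.2 to 38.9 CPM in WT, with Sp7 and Bglap too low to test, and their part in the Runx2 values was not tested.

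Klk1, a kallikrein protease that is a marker of mouse plasmacytoid dendritic cells (chr7:44225360-44229618, plus strand), departed from the other members. It was at 0.100, 0.497 and 0.887 CPM in the libraries labelled double mutant (2, 10 and 14 counts), at 11.9, 17.0 and 8.89 CPM in Tet2+/- (251, 286 and 184 counts), at 2.12 and 0.864 CPM in Akita (35 and 18 counts) and at 1.01, 1.79 and 1.09 CPM in WT (20, 36 and 18 counts). All 3 Tet2+/- libraries were well above all 8 others, whereas the double mutant libraries lay below WT, the first of them under the floor of detection. The log2 difference of the double mutant from WT was -1.41 (SE 0.65, edgeR adjusted p = 0.588). Klk1 fell in the libraries labelled double mutant against Tet2+/- (log2 difference -4.68, SE 0.69, edgeR adjusted p = 0.0370). In Tet2+/- against WT its log2 difference was 3.27 (SE 0.63, edgeR adjusted p = 0.466), not past the threshold with edgeR, although DESeq2 called it (log2 difference 3.29, DESeq2 adjusted p = 1.13e-05). Klk1 belongs to a cluster of closely related kallikrein genes on chromosome 7, so how its reads were split from its relatives is uncertain.

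Among the conventional members, Clec9a, the receptor by which type 1 conventional cells sense dead cells (chr6:129408862-129424763, plus strand), followed the plasmacytoid pattern most closely. Clec9a was at 1.85, 1.59 and 0.761 CPM in the libraries labelled double mutant (37, 32 and 12 counts), 7.11, 8.90 and 4.30 CPM in Tet2+/-, 6.41 and 5.52 CPM in Akita, with 7.61, 5.83 and 8.71 CPM in WT. The double mutant libraries were below all 8 others. The log2 difference was -2.38 (SE 0.41, edgeR adjusted p = 0.0779) against WT and -2.26 (SE 0.41, edgeR adjusted p = 0.0665) against Tet2+/-. Clec9a is also transcribed, at lower levels, in progenitors of dendritic cells and in mouse plasmacytoid cells.

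Zbtb46, a zinc finger factor of the conventional lineage (chr2:181387762-181459426, minus strand), was at 6.82, 4.13 and 9.19 CPM in the libraries labelled double mutant, 13, 15.9 and 56.6 CPM in Tet2+/-, 11.7 and 17.4 CPM in Akita, with 15.9, 13.3 and 40.5 CPM in WT. The double mutant libraries were below all 8 others, and Tet2+/- 3 and WT 3 were the highest. In mice Zbtb46 is also expressed in erythroid progenitors. Klf1, the erythroid master regulator, was at 30.6, 12.1 and 71.1 CPM in the libraries labelled double mutant, 34.2, 63.0 and 366 CPM in Tet2+/-, 33.3 and 94.7 CPM in Akita, with 75.8, 33.7 and 250 CPM in WT. It too was highest in Tet2+/- 3 and WT 3, and the part of erythroid cells in the Zbtb46 values was not tested. The log2 difference of Zbtb46 from WT was -1.79 (SE 0.64, edgeR adjusted p = 0.407).

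Batf3, the transcription factor that type 1 conventional cells require (chr1:191097847-191108945, plus strand), had few counts: 44, 10 and 2 counts in the libraries labelled double mutant, 28, 29 and 11 in Tet2+/-, 10 and 11 in Akita and 18, 17 and 21 in WT. The double mutant libraries held both the highest and the lowest of the 11 counts, and the log2 difference from WT was -0.07 (SE 0.79, edgeR adjusted p = 0.992), so a difference in Batf3 was not detectable at this depth and spread.

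Flt3, the receptor of the growth factor Flt3 ligand (chr5:147330741-147400489, minus strand), was at 64.3, 57.8 and 79.9 CPM in the libraries labelled double mutant, 92.6, 95.4 and 34.3 CPM in Tet2+/-, 73.5 and 75.3 CPM in Akita, with 74.2, 76.2 and 80.5 CPM in WT. The double mutant libraries overlapped WT, and Tet2+/- 3 was the lowest library of all. The log2 difference from WT was -0.19 (SE 0.33, edgeR adjusted p = 0.933). Flt3 is also carried by multipotent and lymphoid progenitors, which lineage depletion keeps. Per 100 Siglech counts there were 294, 301 and 660 Flt3 counts in the libraries labelled double mutant, 91.7, 63.5 and 78.8 in Tet2+/-, 149 and 132 in Akita and 99.1, 130 and 140 in WT, so the double mutant libraries stood above all 8 others on this ratio.

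Counted over the 9 members, edgeR called 0 in the double mutant against WT (0.0192% of all genes were called lower), with 6 members at an unadjusted p under 0.05, all lower (8.79% of all genes had such a p, in either direction). There DESeq2 called 4 members (2.61% of all genes) and limma voom 1 (0.0832% of all genes). Against Tet2+/- it called 2, Spib and Klk1 (0.179% of all genes were called lower). Both of these calls were lost when double mutant 2, Tet2+/- 1 or 2, either Akita library, or WT 1 or 2 was left out, that of Klk1 also without double mutant 1 or 3. Without Tet2+/- 3, 5 members were called, where 59 of 15459 genes tested were called lower. Against Akita it called 0 (0.0192% of all genes were called lower), with 6 members at an unadjusted p under 0.05 (6.6% of all genes), while DESeq2 called 2 (1.21% of all genes) and limma voom 0. Non-overlap was seen for 6 members against Tet2+/- (6.68% of all genes lay lower without overlap) and for 6 against Akita, where 19.9% of all genes did, with only 2 Akita libraries. These comparisons share the double mutant libraries.

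Among WT, Tet2+/- and the double mutant, libraries numbered 3 deviated together and apart from numbers 1 and 2, while numbers 1 and 2 were not told apart, and taking the replicate number as a block raised the counts of calls. With the block, 6 members fell in the double mutant against WT (0.71% of all genes were called lower): Spib (log2 difference -2.61, edgeR adjusted p = 0.0115), Siglech (-1.91, edgeR adjusted p = 0.0277), Clec9a (-2.46, edgeR adjusted p = 0.0277), Tcf4 (-1.02, edgeR adjusted p = 0.0307), Zbtb46 (-1.64, edgeR adjusted p = 0.0444) and Runx2 (-0.98, edgeR adjusted p = 0.0473). Against Tet2+/- the block gave 6, namely Spib, Siglech, Klk1, Tcf4, Clec9a and Zbtb46 (1.67% of all genes were called lower). Against Akita it gave 1, Spib (edgeR adjusted p = 0.0433, with 0.0576% of all genes called lower). Without the libraries numbered 3, the same 6 members as with the block fell against WT (1.81% of all genes were called lower), 7 fell against Tet2+/- (3.83% of all genes), now with Flt3 (log2 difference -0.62, edgeR adjusted p = 0.0192), and 6 fell against Akita (1.27% of all genes).

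**Figure D2:**
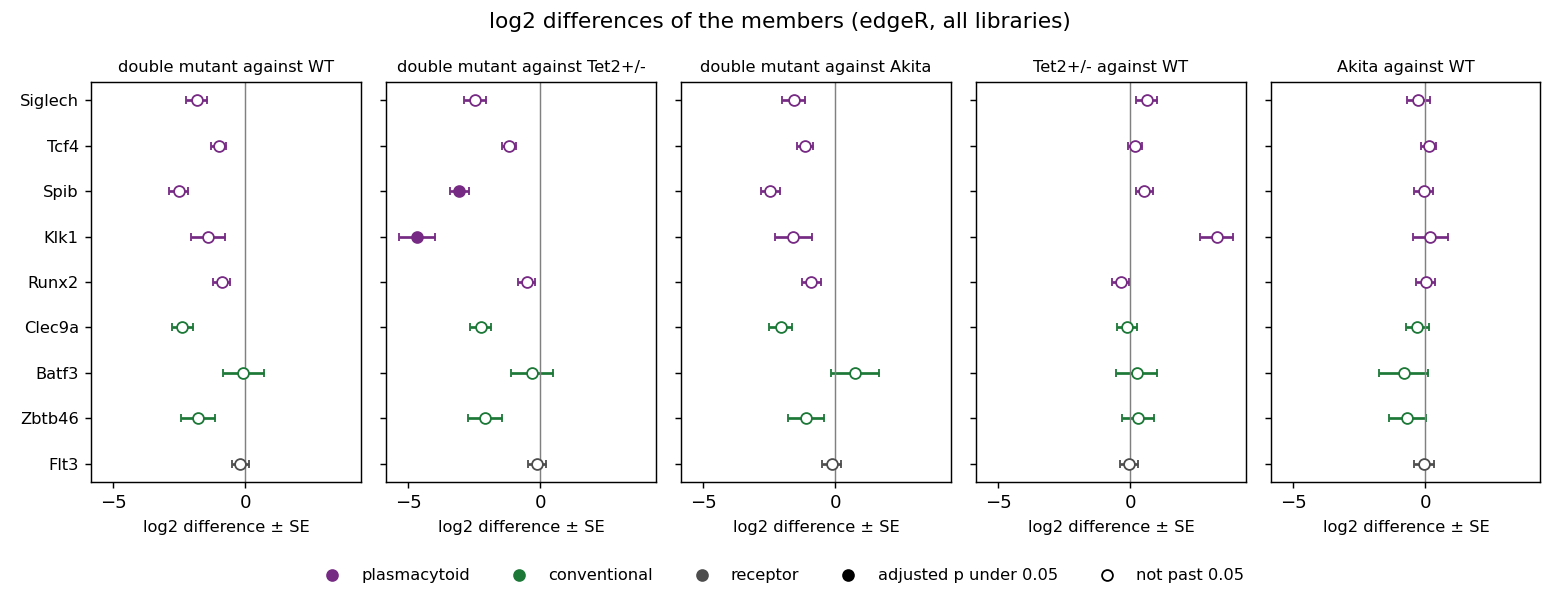
Fitted log2 difference of each member (horizontal axis, bars ± SE) in 5 comparisons, from one edgeR fit of all 11 libraries without the replicate block, with filled symbols for adjusted p under 0.05. Only Spib and Klk1 in the double mutant against Tet2+/- are filled, and Flt3 and Batf3 lie nearest to 0 in the double mutant against WT.

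The plasmacytoid and the conventional members were then set against each other. In the double mutant against WT the median log2 difference was -1.41 over the 5 plasmacytoid and -1.79 over the 3 conventional members, against -0.05 over all genes tested. Against Tet2+/- the medians were -2.47 for plasmacytoid and -2.09 for conventional members (all genes -0.08), and against Akita -1.58 for plasmacytoid and -1.12 for conventional members (all genes 0.01). With so few members, each median is the value of a single gene. For the plasmacytoid members this was Klk1 against WT, with 2, 10 and 14 counts in the double mutant libraries, and Siglech against Tet2+/- and Akita. For the conventional members it was Zbtb46 each time. The difference between the classes, plasmacytoid minus conventional, was 0.38 against WT, -0.38 against Tet2+/- and -0.47 against Akita, with a sign that depended on the group compared. Under limma voom it was -0.09 against WT, -0.47 against Tet2+/- and -0.42 against Akita, all of one sign. Within single libraries, on log2 levels relative to the WT mean, plasmacytoid minus conventional averaged 0.17 ± 0.70 (SD, n = 3) in the libraries labelled double mutant, 0.43 ± 0.32 (SD, n = 3) in Tet2+/-, 0.43 ± 0.09 (SD, n = 2) in Akita and 0.06 ± 0.40 (SD, n = 3) in WT. The double mutant and WT means differed by less than either SD, so no difference between the classes was resolved. Leaving out the libraries numbered 3 turned the difference against WT to -0.28 and widened that against Tet2+/- to -1.21.

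Measured per library, the plasmacytoid median was -1.51, -0.97 and -1.70 in the libraries labelled double mutant, against 0.06, 0.10 and -0.14 in WT (log2 relative to the WT mean). The conventional median was -1.52, -1.90 and -1.26 in the double mutant libraries, against -0.09, -0.30 and 0.24 in WT. On both medians the double mutant and WT libraries did not overlap. Genes of other cells moved with the same libraries: the B lineage median over 15 genes was -1.71, -2.16 and -1.67 in the double mutant libraries, against 0.23, -0.14 and 0.04 in WT, and the maturing neutrophil median over 11 genes was 2.07, 2.73 and 2.92, against 0.89, 1.11 and -2.01 in WT. In summed level, the neutrophil list made up 45092 to 69479 CPM in the libraries labelled double mutant, 2929 to 28032 CPM in Tet2+/-, 15527 to 30087 CPM in Akita, with 2084 to 22997 CPM in WT. The B lineage list summed to 78.8 to 157 CPM in the double mutant libraries, 271 to 483 CPM in Tet2+/-, 244 to 278 CPM in Akita, with 259 to 302 CPM in WT. Among the genes of these lists, 14 of 15 B lineage genes lay lower without overlap against WT (8.57% of all genes did) and 11 of 11 neutrophil genes lay higher (9.55% of all genes lay higher without overlap), and their part in the dendritic cell values was not tested.

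**Figure D3:**
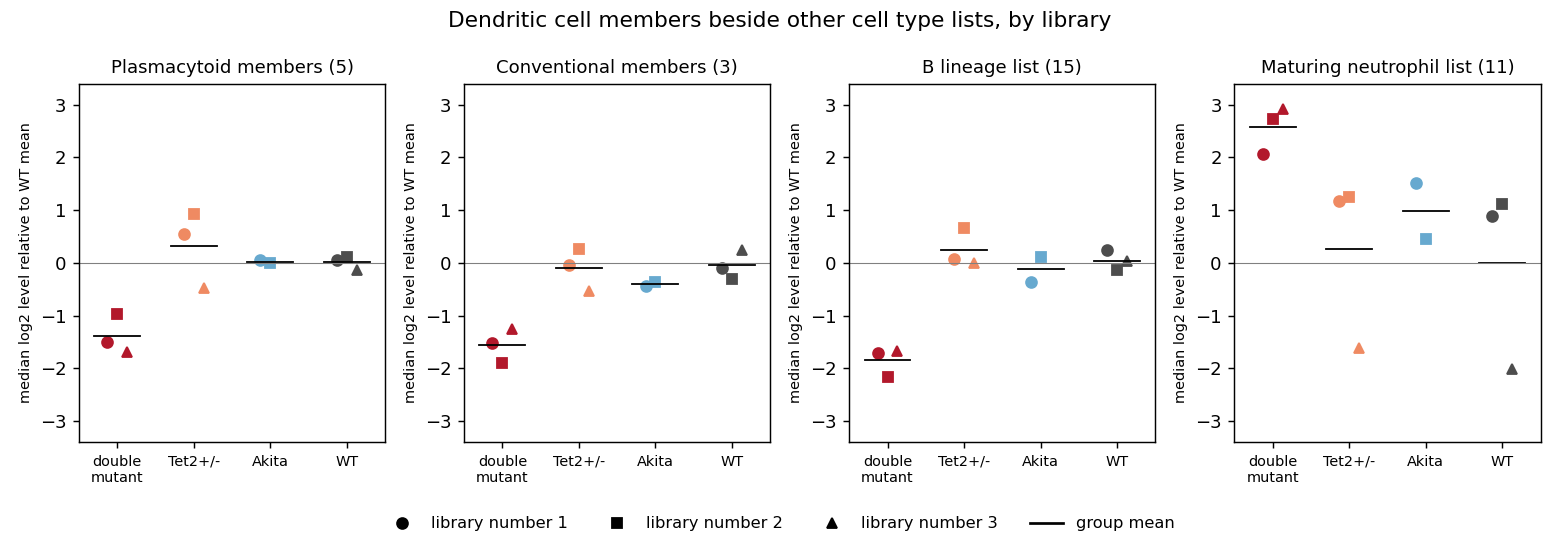
Median log2 level relative to the WT mean (vertical axis) of the 5 plasmacytoid members, the 3 conventional members, 15 B lineage genes and 11 maturing neutrophil genes in each library, with a line at the group mean. The double mutant libraries lie between -0.97 and -1.70 for the plasmacytoid and between -1.26 and -1.90 for the conventional members, and above all other libraries for the neutrophil genes.

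Wider lists gave the setting of the members. Of 20 further genes known from plasmacytoid dendritic cells, 15 had a log2 difference below 0 in the double mutant against WT, the median was -0.82, and 10 lay lower without overlap (8.57% of all genes did). The values ran from -2.70 to 2.09, the highest being that of Klk1b27, and 0 lay higher without overlap (9.55% of all genes did). The genes of this list named next were called or had the smallest p, and all of them lay lower. None was called by edgeR (0 of 20), and 10 had an unadjusted p under 0.05, all lower (8.79% of all genes had such a p, in either direction). DESeq2 called 7 (2.61% of all genes) and limma voom 0. With the replicate block 5 fell (Pacsin1, Rpgrip1, Ccr9, Cd300c and Upb1, where 0.71% of all genes were called lower), and 7 fell without the libraries numbered 3 (1.81% of all genes). Against Tet2+/- 4 of the 20 fell (0.179% of all genes were called lower): Pacsin1, an endocytic adaptor (log2 difference -2.31, edgeR adjusted p = 0.0496), Havcr1, a phosphatidylserine receptor (-3.25, edgeR adjusted p = 0.0460), Rpgrip1, known from the photoreceptor cilium (-1.64, edgeR adjusted p = 0.0367), and Upb1, an enzyme of pyrimidine breakdown (-2.63, edgeR adjusted p = 0.0460). Upb1 was at 1.95, 1.69 and 0.887 CPM in the libraries labelled double mutant, 10.7, 12.6 and 4.93 CPM in Tet2+/-, 7.80 and 7.40 CPM in Akita, with 8.97, 10.1 and 10.7 CPM in WT. The double mutant libraries were below all 8 others for Upb1. Ly6d, a surface protein of lymphoid and plasmacytoid precursors, was at 17.2, 14.4 and 19.1 CPM in the double mutant libraries and at 49.7, 50.8 and 50.5 CPM in WT (log2 difference -1.57, edgeR adjusted p = 0.159).

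Of 12 genes of type 1 conventional cells, 11 were tested and 6 had a log2 difference below 0 against WT, with a median of -0.35. The values ran from -1.58, that of Irf8, to 0.82. Without overlap, 2 lay lower (8.57% of all genes did) and 1 lay higher (9.55% of all genes did). The median was 0.10 without the libraries numbered 3. edgeR called 0 of them, and 2 had an unadjusted p under 0.05 (8.79% of all genes did). DESeq2 called 1 (2.61% of all genes) and limma voom 0. The chemokine receptor Xcr1, a defining marker, was too low to test. Irf8, the factor that type 1 and plasmacytoid cells share, was at 88.9, 87.6 and 62.3 CPM in the libraries labelled double mutant, 200, 252 and 167 CPM in Tet2+/-, 171 and 142 CPM in Akita, with 180, 175 and 361 CPM in WT (log2 difference from WT -1.58, SE 0.32, edgeR adjusted p = 0.117). Its double mutant libraries were below all 8 others. Of 12 genes of type 2 conventional cells, 11 were tested, and 10 were below 0 with a median of -0.64. Their values ran from -2.79 to 1.02. Lying without overlap, 4 were lower (8.57% of all genes) and 1 was higher (9.55% of all genes). edgeR called 0 of them, and 4 had an unadjusted p under 0.05 (8.79% of all genes did). DESeq2 called 2 (2.61% of all genes) and limma voom 0. With the block 2 fell (0.71% of all genes were called lower), namely Cd209a, a C-type lectin (block log2 difference -3.09, edgeR adjusted p = 0.0432), and Irf4, a factor shared with B cells and plasmacytoid cells (-0.99, edgeR adjusted p = 0.0277).

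Of the 17 regulators of dendritic cell development, 11 were below 0 in the double mutant against WT with a median of -0.29. Their values ran from -1.58 to 0.89. Lying without overlap, 2 were lower (8.57% of all genes) and 1 was higher (9.55% of all genes). edgeR called 0 of them with or without the block, and 2 had an unadjusted p under 0.05 (8.79% of all genes did). DESeq2 called 1 (2.61% of all genes) and limma voom 0. Irf8 and Id2 stand in this list and the type 1 list, and Bcl11a in this list and the plasmacytoid one. Of the 5 genes of class II antigen presentation, which conventional cells, B cells and macrophages share, 5 lay below every WT library (8.57% of all genes did), with a median of -1.33. edgeR called 0 of the 5, and each had an unadjusted p under 0.05 (8.79% of all genes did). DESeq2 called 1 (2.61% of all genes) and limma voom 0. The block called 1, H2-Aa (log2 difference -1.55, edgeR adjusted p = 0.0277, with 0.71% of all genes called lower). When the libraries numbered 3 were left out, edgeR called 4 of the 5 lower against WT (1.81% of all genes). It then also called 5 type 2 genes lower, and Irf8 of the type 1 genes and the regulators. The same held for 10 of 15 B lineage genes and 6 of 10 T and NK cell genes. Among the other cells of the marrow, the 10 T and NK cell genes had a median of -1.26, the 10 erythroid genes -0.95, the 10 monocyte and macrophage genes 0.25 and the 4 plasma cell genes 0.11. The 4 primary granule genes had a median of 0.69, the 10 stem and progenitor genes 0.18 and the 8 of 10 osteoblast and stromal genes tested 0.73.

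Ratios to Siglech in the same library showed which members moved in step. Spib stood at 47.6, 38.9 and 35.1 counts per 100 Siglech counts in the libraries labelled double mutant, 61.4, 53.9 and 97.0 in Tet2+/-, 76.3 and 77.1 in Akita and 59.3, 64.5 and 79.4 in WT, so the double mutant libraries were below all 8 others. Tcf4 stood at 292, 299 and 387 per 100 Siglech counts in the double mutant libraries, 137, 112 and 185 in Tet2+/-, 240 and 226 in Akita and 166, 207 and 166 in WT, and here the double mutant libraries were above all 8 others. Tcf4 is also expressed in B cells and in progenitors. Runx2 stood at 464, 461 and 365 in the double mutant libraries, 128, 89.9 and 168 in Tet2+/-, 304 and 252 in Akita and 194, 268 and 229 in WT. On this ratio too the double mutant libraries were above all 8 others, while for Zbtb46 and Batf3 they overlapped the others. Clec9a stood at 8.47, 8.29 and 6.28 in the double mutant libraries, 7.05, 5.92 and 9.88 in Tet2+/-, 13 and 9.69 in Akita and 10.2, 9.92 and 15.1 in WT, so the double mutant libraries lay below WT and Akita and overlapped Tet2+/-. Klk1 stood at 0.458, 2.59 and 7.33 per 100 Siglech counts in the double mutant libraries, 11.8, 11.3 and 20.4 in Tet2+/-, 4.29 and 1.52 in Akita and 1.35, 3.05 and 1.89 in WT. For Klk1 the 3 Tet2+/- libraries were above all 8 others.

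**Figure D4:**
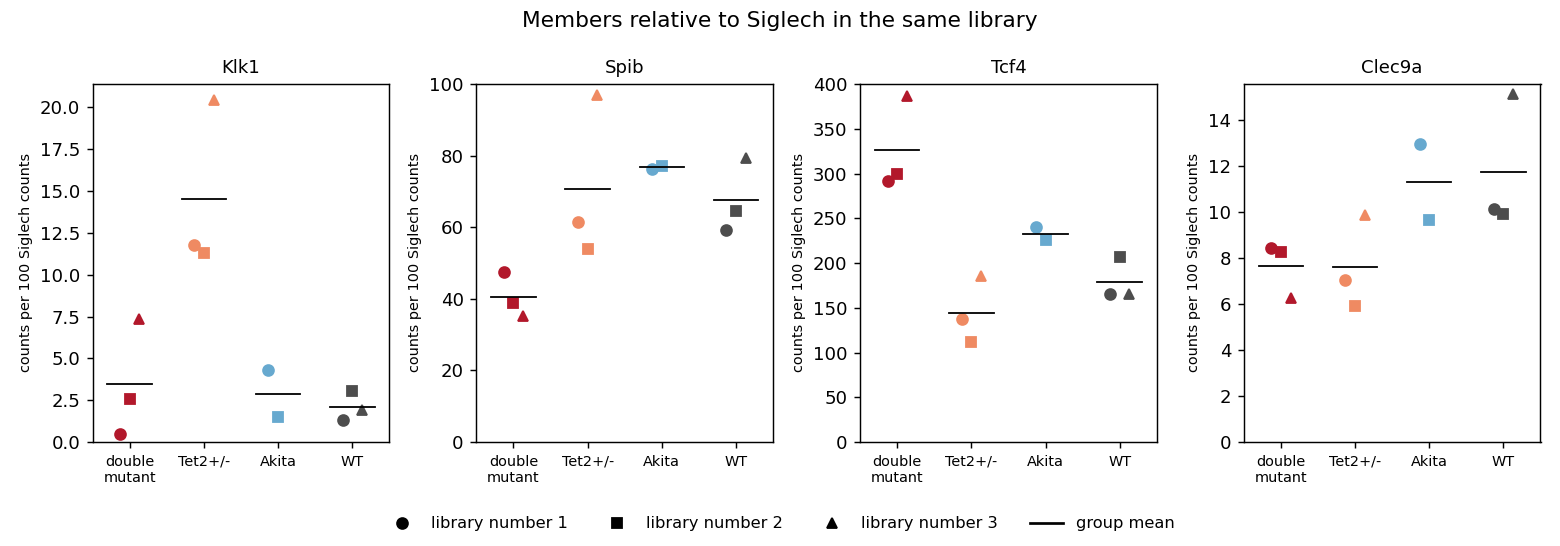
Counts of Klk1, Spib, Tcf4 and Clec9a per 100 Siglech counts (vertical axis, from 0) in each library, with a line at the group mean. Klk1 lies at 11.3 to 20.4 in Tet2+/- and at or under 7.33 in all other libraries, and Tcf4 lies highest in the libraries labelled double mutant.

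Apart from Klk1 in Tet2+/-, no member was called in a single mutant against WT. In Tet2+/- against WT, edgeR called 0 of 9 (0.0256% of all genes were called), with 1, Klk1, at an unadjusted p under 0.05 (2.12% of all genes), and the log2 differences of the other 8 ran from -0.37 (Runx2) to 0.62 (Siglech). DESeq2 called 1 (0.288% of all genes), Klk1, which was also the single member whose Tet2+/- libraries did not overlap WT, as 2.07% of all genes lay higher. In Akita against WT, edgeR called 0 of 9 (0% of all genes were called), 0 had an unadjusted p under 0.05 (0.429% of all genes), and DESeq2 called 0. The log2 differences there ran from -0.82 (Batf3, SE 0.92) to 0.19 (Klk1, SE 0.67). Siglech and Batf3 lay lower in Akita without overlap, as 6.86% of all genes did. The interaction, the part of the double mutant difference that the single mutant differences do not add up to, was -4.87 for Klk1 (SE 0.93, edgeR adjusted p = 0.412), -3.0 for Spib (SE 0.49, edgeR adjusted p = 0.401), -2.21 for Siglech (SE 0.59, edgeR adjusted p = 0.812) and -1.95 for Clec9a (SE 0.58). None of the 9 was called by edgeR (0% of all genes were called), 5 had an unadjusted p under 0.05 (3.44% of all genes), and DESeq2 called 2 (0.365% of all genes), Spib and Klk1. Without the libraries numbered 3, Spib passed (log2 interaction -2.99, edgeR adjusted p = 0.0194). The interaction takes the Tet2 change to be the same in the Tet2+/- and double mutant libraries. Number by number, however, Tet2 was at 14.5% to 42.8% of WT in Tet2+/- and at 72.9% to 84.2% in the double mutant.

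Per kilobase of exon, the WT levels ran, from high to low, Siglech 18.8 ± 2.86, Runx2 16.4 ± 1.43, Spib 14.9 ± 1.46, Flt3 12.5 ± 0.523, Tcf4 4.15 ± 0.579, Zbtb46 2.73 ± 1.76, Clec9a 2.24 ± 0.442, Klk1 1.20 ± 0.401 and Batf3 0.631 ± 0.144 CPM per kilobase (SD, n = 3 each). The neighbours Siglech and Runx2, Tcf4 and Zbtb46, and Zbtb46 and Clec9a differed by less than the larger SD of the pair, and the other neighbours differed by more. In the libraries labelled double mutant, Flt3 led at 10.9 and Runx2 followed at 8.84, with Siglech at 5.24 CPM per kilobase. The length used was that of all annotated exons merged, 27382 bases for Tcf4 and 3383 bases for Siglech. Before this scaling Tcf4 averaged 114 CPM and Siglech 63.7 CPM in WT, so these orders depend on the length used.

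The genes whose log2 levels were most like that of Siglech over the 11 libraries, among 13128 genes, were Cd300c (Pearson r 0.98), Cd7, Mycl, Rnase6 and Klhl14 (each 0.97). Tcf4 came 7th in that order and Spib 9th, ahead of Clec9a, which ranked 21. Runx2 ranked 419, Klk1 666, Zbtb46 1912 and Flt3 2392. For Clec9a the order began with Upb1 (0.99), Spib (0.97), Klhl14, Rtn4rl1 and Cd300c (each 0.96). These are descriptions over 11 libraries that share their genotype groups and cell make-up.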

How the data were processed

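The deposited values are raw read counts per gene, whole numbers that the authors left unnormalized, per the file headers and the values. The submitters' processing notes name bcl2fastq, Trimmomatic 0.32, TopHat2 2.1.1 and build GRCm38. The counting program, its annotation and whether it used strand were not given in the sources used here, so counts of overlapping and antisense genes are uncertain. Symbols came from GENCODE M21: 25042 of the 31060 gene identifiers matched with the version number and 30875 once it was removed. A column could be matched to 11 of 12 labelled samples. Sample 4 of the double mutant was not analysed here, and 1 column that matches no sample label was left out.

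The test was edgeR 4.0.16 (R 4.3.3): filterByExpr left 15630 genes, TMM factors were used, and all 4 groups entered 1 model by glmQLFit (robust=TRUE) and glmQLFTest ( Benjamini-Hochberg adjusted p under 0.05 over all genes tested). The script was first tested on simulated data. DESeq2 1.42.0 and limma 3.58.1 (voom) were alternatives. CPM values use the TMM factors. Among WT, Tet2+/- and the double mutant, deviations from the group means correlated at 0.356 to 0.832 over the 9 same-numbered pairs (0.562 to 0.832 for number 3), and at -0.414 to 0.323 over those with Akita. Between numbers 1 and 2 they correlated at 0.227 to 0.759, against 0.356 to 0.608 for same-numbered pairs of these numbers, and between number 3 and the others at -0.785 to -0.364, so the check sets number 3 apart and does not separate 1 from 2. No 2 libraries of a group agreed within counting noise.

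The members and lists were chosen with earlier results of these data known. Named genes were the 9 members, genes of the wider lists that were called or had the smallest p, the 5 genes most correlated with Siglech and with Clec9a, and Tet2; Irf4, Xcr1, Sp7, Bglap, Ccr9, Cd300c and the neighbours of Klk1 were named after their values were seen. Other alternatives were RLE and upper quartile factors, no low count filter, the replicate block, only the groups compared, robust=FALSE, each library left out in turn and all libraries numbered 3 left out.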

Additional observations from a re-analysis of the deposited data

How the results depend on the processing

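Over the 9 members and 6 comparisons, no log2 difference changed its sign while called: 992 values under alternatives stayed on their side of the threshold, 61 gained a call and 18 lost one. In the double mutant against WT, where edgeR called 0 members, upper quartile factors, limma voom and robust=FALSE each called 1. Of all 15630 genes these called 10, 13 and 10 in either direction. No low count filter called 2 members (52 of 30733 genes) and DESeq2 4 (408 of 15630). The replicate block called 6 (255 of 15630), as did the fit without all libraries numbered 3 (519 of 15092). Leaving out single libraries gave 0 to 3, the 3 without Tet2+/- 3 (49 of 15459). Against Tet2+/- (2 members), the fit of only the groups compared called 0 (0 of 14429 genes in either direction). No low count filter called 4 (86 of 30733), DESeq2 6 (538 of 15630) and the replicate block 6 (703 of 15630). The fit without the libraries numbered 3 called 7 (1163 of 15092). Leaving out single libraries gave 0 to 5, the 5 without Tet2+/- 3 (66 of 15459). The call of Spib there was lost without double mutant 2, Tet2+/- 1 or 2, Akita 1 or 2, or WT 1 or 2, and that of Klk1 also without double mutant 1 or 3, with Klk1 adjusted p of 0.0525 to 0.159 and Spib adjusted p of 0.0662 to 0.116 (edgeR). Against Akita (0), no low count filter called 1 member (20 of 30733 genes) and the replicate block 1 (18 of 15630). DESeq2 called 2 (189 of 15630), and the fit without the libraries numbered 3 called 6 (436 of 15092). Leaving out single libraries gave 0 to 1, the 1 without Tet2+/- 3 (11 of 15459). DESeq2 called 1 in Tet2+/- against WT (45 of 15630 genes) and 2 for the interaction (57 of 15630). For the interaction, no low count filter called 1 (3 of 30733), as did the fit without the libraries numbered 3 (7 of 15092).

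The plasmacytoid minus conventional difference moved more. Against Akita it was 0.27 with the replicate block, 0.039 without the libraries numbered 3 and -0.75 to 0.18 without single libraries. For Akita against WT (0.69) it was 0.26 with the block, 0.16 without the libraries numbered 3 and 0.16 to 1.02 without single libraries, and for the interaction (-0.80) -0.058 with the block and -2.13 to -0.065 without single libraries. Against WT it was -0.09 with limma voom, -0.28 without the libraries numbered 3 and -0.40 to 0.97 without single libraries; against Tet2+/- it was -1.21 and -1.72 to -0.013. The causes were not tested. Depth limits Batf3 and, outside Tet2+/-, Klk1.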

Other observations

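The region around Klk1 was looked at after its values had been seen. Within 500000 bases on each side, 22 genes were tested in Tet2+/- against WT, and 5 had an absolute log2 difference of at least 1, against 4.57% of all genes tested. These were Klk1b27 (log2 difference 4.25), 5430431A17Rik (3.69), Klk1 itself (3.27), Mybpc2 (1.11) and Fam71e1 (-1.02), and none of the 22 was called by edgeR. Spib lies in the same window, at a log2 difference of 0.53 in that comparison. Klk1b27, a second kallikrein, was at 0.995, 1.31 and 1.11 CPM in Tet2+/- and at 0.101, 0 and 0.0605 CPM in WT. All 3 Tet2+/- libraries were above all WT libraries, but reads shared between kallikreins cannot be told apart here. Klk1b27 is also one of the 20 further plasmacytoid genes. Its log2 difference was 2.09 in the double mutant against WT and 1.44 in Akita against WT, neither called by edgeR. Those of Klk1 were -1.41 and 0.19.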
